A study of Mus musculus with 3 samples.

Results

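MicroRNA genes were examined as neighbours of the regions that the homeodomain transcription factor Nkx2.2 occupied in the mouse oligodendrocyte lineage. Members were the genes whose symbol in the deposited region table starts with Mirn, a stem that also holds the let-7 genes (spelled Mirnlet7). They numbered 140 of 14473 gene names, and their 177 regions, each counted once, were part of 37271. A further region of 6126 bp at Mirn715, chr17:39979839-39985965, was set apart because of its length, at an average signal of 51.2 in progenitors and 60.1 in oligodendrocytes.

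Nkx2.2 was measured by chromatin immunoprecipitation and sequencing (ChIP-seq) in oligodendrocyte progenitor cells (OPCs) and in the oligodendrocytes (OLs) made from them in culture. The OPCs were isolated from cortex of C57BL/6 mice at postnatal day 7 by an antibody to PDGFRA and kept in serum-free medium with PDGF-AA (10 ng/mL), NT-3 (1 ng/mL) and CNTF (10 ng/mL). The OLs were the same cells after 48 h without PDGF-AA and with the thyroid hormone T3 (40 ng/mL), so they are postmitotic cells of a culture and not of the tissue. Each state has 1 library, the cells of both were isolated and cultured together, and an input library that pools both states was not analysed here. Every difference given below therefore lies between a pair of libraries and has no replicate check. The files hold no RNA values, so neither the cell types nor the expression of any microRNA could be checked.

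A microRNA gene is transcribed as a long precursor from which a short hairpin is cut, and the hairpin is diced to a mature RNA that guides Argonaute proteins to messenger RNAs. Targets are chosen mainly by the seed, the bases near the 5′ end of the mature RNA, so microRNAs that share a seed share many targets. In oligodendrocyte progenitors, miR-219 and miR-338 are known to promote the exit from proliferation and the onset of myelination, by repressing factors that hold progenitors in their state. Many microRNA genes lie inside a protein-coding host gene or next to other genes, so a region near one can equally belong to its neighbour.

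The mature sequences of the microRNAs on which the results turn are printed from RefSeq (GRCm38.p6), 5′ to 3′, with the seed (bases 2 to 8) in capitals. The first set holds microRNAs known from the oligodendrocyte lineage.
miR-338-3p (Mirn338): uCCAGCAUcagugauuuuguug
miR-219a-5p (Mirn219-1): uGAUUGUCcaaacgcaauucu
miR-138-5p (Mirn138-1): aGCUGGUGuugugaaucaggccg
miR-9-5p (Mirn9-2): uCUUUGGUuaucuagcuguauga
miR-7a-5p (Mirn7-1): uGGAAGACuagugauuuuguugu
miR-27b-3p (Mirn27b): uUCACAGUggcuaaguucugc

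The next set belongs to genes whose regions had a large signal or a large difference between the libraries, or covered the microRNA start (Mirn107). Mirn26b is added to show that miR-26a and miR-26b carry the same seed.
miR-26a-5p (Mirn26a-1): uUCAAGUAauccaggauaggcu
miR-26b-5p (Mirn26b): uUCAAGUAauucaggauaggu
miR-148b-3p (Mirn148b): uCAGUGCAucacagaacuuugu
miR-33-5p (Mirn33): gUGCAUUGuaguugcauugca
miR-326-3p (Mirn326): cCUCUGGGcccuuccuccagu
miR-342-3p (Mirn342): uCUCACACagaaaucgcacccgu
miR-107-3p (Mirn107): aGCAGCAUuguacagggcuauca

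The last set holds microRNAs known from neurons, the let-7 family and the clusters linked to proliferation. It shows the seed that miR-132 and miR-212 share, the one common to let-7, and those that join miR-17 with miR-93 and miR-106b, and miR-25 with miR-92a.
miR-137-3p (Mirn137): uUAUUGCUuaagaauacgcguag
miR-128-3p (Mirn128a): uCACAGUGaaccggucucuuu
miR-218-5p (Mirn218-2): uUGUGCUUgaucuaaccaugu
miR-132-3p (Mirn132): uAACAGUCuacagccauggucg
miR-212-3p (Mirn212): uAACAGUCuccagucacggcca
let-7a-5p (Mirnlet7a-1): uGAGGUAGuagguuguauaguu
let-7d-5p (Mirnlet7d): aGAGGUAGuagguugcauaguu
miR-17-5p (Mirn17): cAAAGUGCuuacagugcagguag
miR-93-5p (Mirn93): cAAAGUGCuguucgugcagguag
miR-106b-5p (Mirn106b): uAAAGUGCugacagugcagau
miR-25-3p (Mirn25): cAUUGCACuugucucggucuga
miR-92a-3p (Mirn92-1): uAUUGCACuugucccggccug

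Mirn219-1 and Mirn219-2 encode the same miR-219a-5p from different hairpins, which are printed with that of Mirn338 and with the mature RNA in capitals, to show how the 2 genes differ outside the mature RNA.
Mirn338 hairpin: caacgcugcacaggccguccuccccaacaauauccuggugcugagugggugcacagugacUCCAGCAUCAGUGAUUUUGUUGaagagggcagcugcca
Mirn219-1 hairpin: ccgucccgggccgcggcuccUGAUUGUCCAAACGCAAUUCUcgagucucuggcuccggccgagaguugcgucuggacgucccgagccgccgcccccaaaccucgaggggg
Mirn219-2 hairpin: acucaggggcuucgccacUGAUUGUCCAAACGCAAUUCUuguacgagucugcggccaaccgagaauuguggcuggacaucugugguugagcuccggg
Of the 140 symbols, 135 matched 1 RefSeq gene (for Mirn801 a small nuclear RNA gene) and 126 had a mature sequence there. Among the 179 seeds of these genes, 24 occurred at more than 1 gene.

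Regions near microRNA genes were called in both cell states, and more of them in OLs than in OPCs. A call is an interval that the authors' peak caller found in that library. The OPC library had a call in 76 of the 177 microRNA regions, 42.9% (exact 95% interval 35.5 to 50.6%), beside 38.6% of all regions. The OL library had one in 150, 84.7% (78.6 to 89.7%), beside 85.3% of all regions. Both libraries had one in 49, 27.7% (21.2 to 34.9%), beside 23.8%. The remaining regions were 27 called in OPC only, 15.3% (10.3 to 21.4%) beside 14.7%, and 101 called in OL only, 57.1% (49.4 to 64.5%) beside 61.4%. Each of these intervals holds the share seen over all regions, so microRNA regions were called about as often as regions in general. The intervals cover counting error over regions alone, and neighbouring regions of a gene are not independent.

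The average signal at microRNA regions ranged from 0 to 20.0 in OPC, with a median of 3.39, and from 0 to 15.6 in OL, with a median of 5.0. All other regions had medians of 3.0 and 5.0 and reached 68.8 and 58.2. Of the 1000 highest regions of the table, 2 in OPC and 1 in OL were microRNA regions. The signal is on the authors' own scale, the depth behind it is unknown, and regions called in a single library still held signal in the other, at a median of 2.09 in OL for the OPC-only regions and 2.11 in OPC for the OL-only ones.

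The difference between the states is given as log2((OL + 1) / (OPC + 1)) of the average signal, where 0 means equal signal and the added 1 shrinks the ratios of weak regions. The median was 0.55 over microRNA regions (95% interval of the median 0.38 to 0.75) and 0.74 over all other regions. Signal was higher in OL at 137 of 177, 77.4%, the same share as over the other regions (77.4%). Log2 ratios of at least 1 occurred at 51 microRNA regions, 28.8% (22.3 to 36.1%), beside 37.5% of all regions, and ratios of at most -1 at 9, 5.08% (2.35 to 9.43%), beside 7.03%. How many lie on each side depends on the scaling between the libraries, which is not stated. Setting the median of regions called in both to 0, a shift of 0.24, gave 35 and 17 microRNA regions past these limits, while 18 and 34 were found with the all-region median at 0, a shift of 0.74. The number with higher signal in OL was then 117 and 76 of 177.

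**Figure D1:**
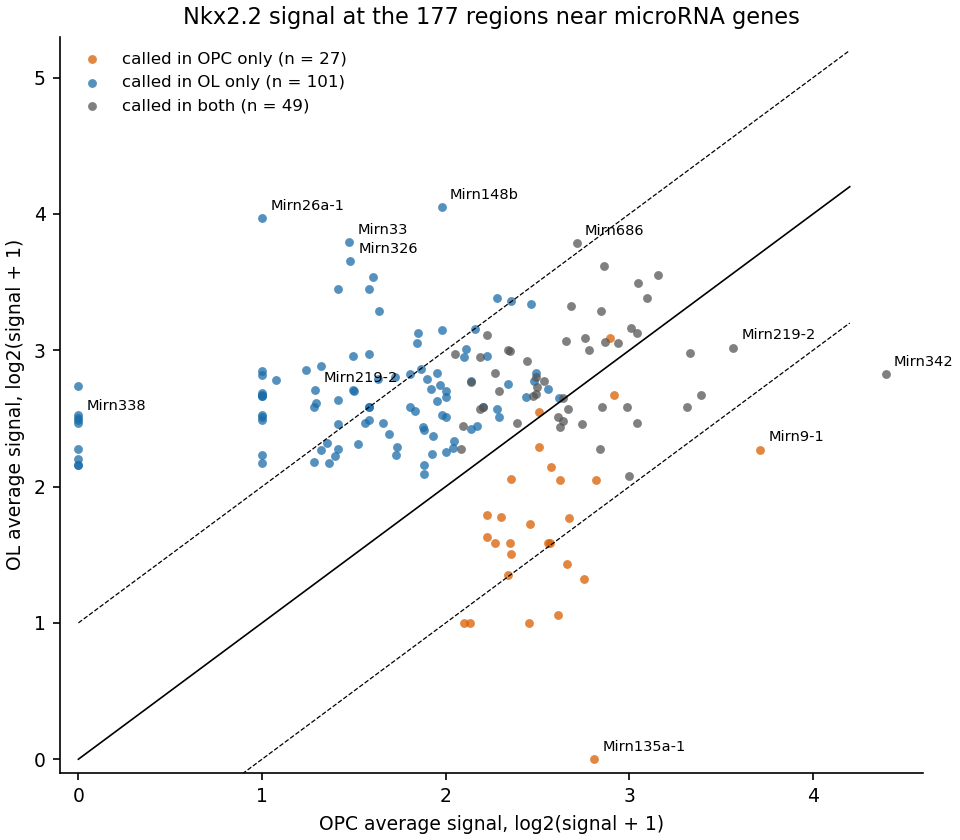
Average Nkx2.2 signal of the 177 microRNA regions in OPC (x axis) and OL (y axis), both as log2(signal + 1), with 1 point per region colored by the library in which it was called. The solid line marks equal signal and the dashed lines log2 ratios of 1 and -1. Mirn26a-1, Mirn148b, Mirn33 and Mirn326 stand high in OL, while Mirn342 (20.0 in OPC), Mirn9-1 and Mirn135a-1 stand toward OPC.

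In the plot of both signals most points lie above the line of equal signal. The points farthest from it are Mirn26a-1 (2.97), called in OL only, and Mirn135a-1 (-2.81), called in OPC only. Mirn135a-1 is listed at 0 in OL, so its ratio depends on the added 1. By gene, 74 of the 140 microRNA genes had at least 1 region called in OPC, beside 57.3% of all genes in the table, and 128 had one called in OL, beside 94.8%. Calls in both states were found for 62 genes, in OL alone for 66 and in OPC alone for 12. The shares of these 3 classes over all genes were not counted, so they are not read as a trait of microRNA genes. Most genes, 91, had 1 region, 30 had 2, 9 had 3 and 6 had 4. Mirn191 and Mirn425 share the same 5 regions, and Mirn9-1 and Mirn9-2 had 7 each, the most of any member.

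Few regions lay at the microRNA itself. The middle of the region was within 1 kb of the annotated microRNA start in 28 of 177 regions, 15.8%, within 2 kb in 38 and within 5 kb in 85, 48.0%. The median distance was 5214 bp, 100 regions were upstream and 77 in or downstream, and the authors' table lists genes out to about 10 kb. The annotated start is that of the short hairpin, not of the longer primary transcript, whose start can be far away. At 11 regions, 6.21%, the interval covered the microRNA start.

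Of these 11, all were called in OL and 5 in OPC as well, beside 85.3% and 38.6% of all regions. Mirn107, inside Pank1, which encodes a pantothenate kinase of coenzyme A synthesis, had a region 34 bp from its start, listed at 0 in OPC and at 4.62 in OL (chr19:34895014-34895442). Mirn375, whose product is abundant in pancreatic islets, had 0 and 3.85 at 91 bp. Both were called in OL only and are listed at 0 in OPC. Their ratios depend on the added 1 and are not given here. Mirn320, next to the RNA polymerase III subunit gene Polr3d, had 2.59 and 7.31 at -126 bp, called in OL only. That region had a CpG island and covered the start of Polr3d, at 64 bp, nearer than the microRNA start. Mirn484, Mirn207 and the Mirn449b and Mirn449 pair were also called in OL only, at log2 ratios of 0.44, 0.50 and 0.28. Mirn707, Mirn685, Mirn699, Mirn762 and Mirn801 were called in both, at 0.65, 0.77, -0.18, 0.33 and -0.27. Each of the regions called in both, and those of Mirn320, Mirn484, Mirn207 and Mirn449b, also lay within 1 kb of another gene's start. Mirn801 matched the U11 small nuclear RNA gene Rnu11 itself in RefSeq, so its regions are not those of an annotated microRNA. Mirn685 and Mirn699 lie by Rpph1 and Rmrp, the RNA genes of RNase P and RNase MRP, and neither was matched to 1 RefSeq microRNA, so these can equally be read as regions at other noncoding RNA genes.

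The other 17 regions within 1 kb include those of Mirn338, both Mirn219 genes, Mirn26a-1, Mirn9-2 and Mirn124a-3 described below. Inside host genes, Mirn151 in Ptk2, the gene of focal adhesion kinase, had 1.00 in OPC and 6.20 in OL at 858 bp. Mirn346 in Grid1, a glutamate receptor gene, had 1.00 and 6.07 at 971 bp. Mirn744 in Map2k4, a kinase of the JNK pathway, had 1.0 and 3.5, and Mirn199b in Dnm1, a dynamin gene, 2.92 and 5.71. All 4 were called in OL only. Mirn695 and Mirn688 were high and called in both, with 6.18 and 8.75 for the first and 6.28 and 11.3 for the second. These regions had a CpG island and covered the starts of Cdc91l1 (-167 bp) and Atp5g2 (-74 bp), nearer than the microRNA starts. Mirn210, which is induced by hypoxia in many cells, had 3.26 and 4.44 and was called in both. Mirn193, Mirn345 and the Mirn191 and Mirn425 pair were called in OL only, at log2 ratios of 0.68, 0.53 and 0.42. A further region at Mirn762 had 0.38. The regions of Mirn345, the Mirn191 and Mirn425 pair and Mirn762 also lay within 1 kb of another gene's start.

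Most microRNA regions had another gene at hand. A gene other than a microRNA was listed for 150 of 177, 84.7%, and 55, 31.1%, lay within 1 kb of the start of such a gene, 43 of them covering it. A CpG island was assigned to 63, 35.6% (28.6 to 43.1%), beside 17.9% of all other regions and 24.3% of those with a listed gene. Of these 63, 46 were among the 55 at another gene's start. Another 68 lay inside another gene away from its start, 27 outside the listed gene, and 27 had microRNA genes alone.

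The state difference varied with this position. Regions inside another gene, which need not host the microRNA, were called in OPC in 19 of 68 cases and in OL in 62. Their median log2 ratio was 0.99, and 34 of them (50%, 37.6 to 62.4%) reached 1 or more. Regions at another gene's start were called in OPC in 28 of 55 and in OL in 47, with a median of 0.41, and 5 reached 1 (9.09%, 3.02 to 20.0%). Regions with microRNA genes alone had 13 and 22 calls of 27 and a median of 0.27, and those outside the listed gene 16 and 19 of 27 and a median of 0.29. The other regions of the table had a median of 0.60 and 19.8% at 1 or more within 1 kb of a gene start, and 0.83 and 42.2% with a listed gene but no start that near. OPC and OL calls were found at 40.6% and 93.0% of the former, and at 36.8% and 85.1% of the latter. Regions with a CpG island had a median of 0.44 near microRNA genes and 0.61 elsewhere, and those without one 0.73 and 0.80. The median was thus lower near microRNA genes in both CpG island classes, and lowest in the 2 classes away from other genes' bodies and starts. The part of position in the lower median of all microRNA regions was not tested.

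**Figure D2:**
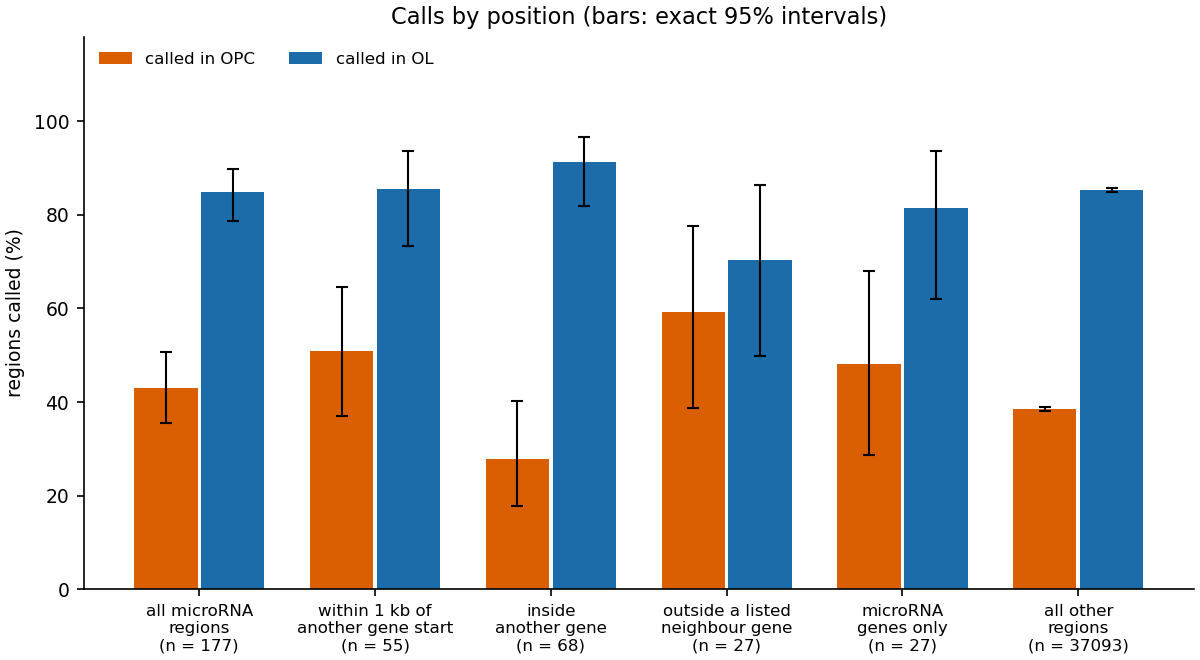
Percentage of regions called in OPC and in OL (y axis) for all microRNA regions, for the 4 position classes among them and for all other regions (x axis, n in parentheses). Bars start at 0 and carry exact 95% intervals over regions. Regions inside another gene had the lowest share of OPC calls, 19 of 68, and the highest share of OL calls, 62 of 68.

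Mirn338 lies in Aatk, which encodes an apoptosis-associated kinase expressed in the nervous system, and had 3 regions, all inside that gene. The nearest, 428 bp downstream of the microRNA start at chr11:119875500-119875995, was listed at 0 in OPC, had 4.67 in OL and was called in OL only. Another at 1439 bp had 2.50 and 6.09, called in OL only, a log2 ratio of 1.02. The region 2412 bp upstream had 4.43 and 6.56, called in both, a ratio of 0.48. Signal was higher in OL at all 3, and stayed above the shared-region median at 3 and above the median of all regions at 2.

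Both genes for miR-219 had regions, and they did not point one way. At Mirn219-2, the region 847 bp upstream (chr2:29701807-29702380, on a CpG island and near the start of a predicted gene, LOC100041002) had 1.44 in OPC, 5.53 in OL, a call in OL only and a log2 ratio of 1.42. A region 10074 bp downstream, inside Urm1, a ubiquitin-related modifier gene, had 10.8 and 7.11, called in both, a ratio of -0.55. At Mirn219-1, a region 510 bp downstream beside the start of Ring1, a Polycomb subunit gene, had 3.24 and 3.83, called in both. Another region 6632 bp upstream, near starts of the zinc transporter gene Slc39a7 and its neighbours, had 4.59 and 5.83, called in OL only. The hairpin-proximal region of Mirn219-2 was thus the one of the 4 with a log2 ratio past 1, and the highest signal of the 4 was in OPC. Over the 4 the median was 0.24, and 3, 2 or 1 of them were higher in OL with no centring, with the shared regions at 0 and with all regions at 0.

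**Figure D3:**
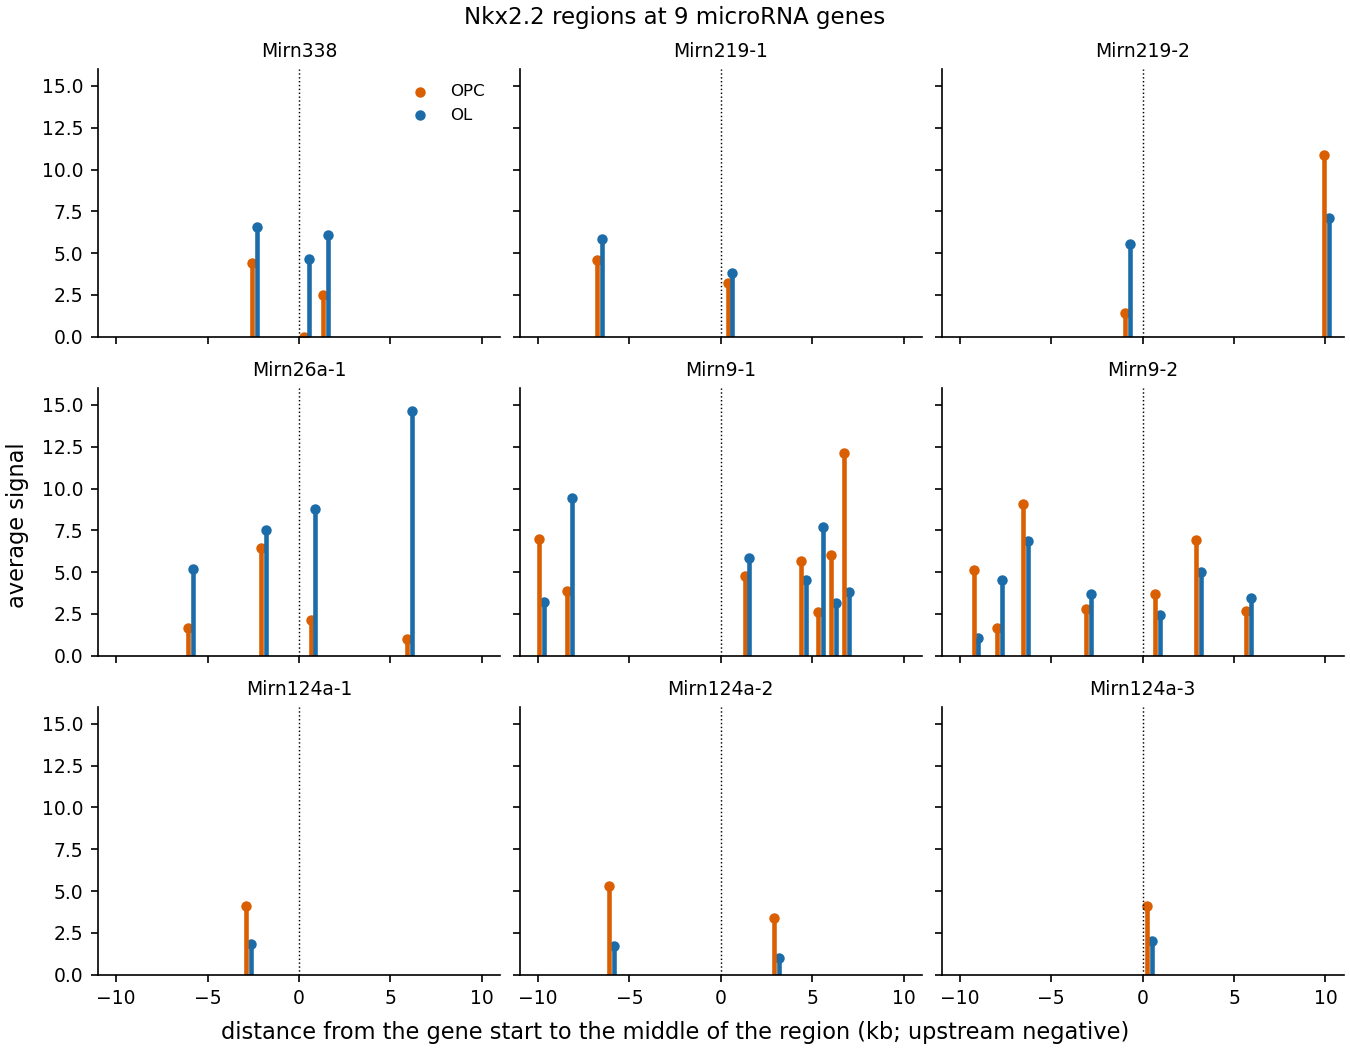
Average signal (y axis) of each region in OPC and OL against its distance in kb from the annotated microRNA start (x axis, upstream negative, dotted line at the start) for 9 genes; paired bars are drawn slightly apart around the true position. Mirn338 and Mirn26a-1 have higher OL signal at every region, the 3 Mirn124a genes have higher OPC signal at every region, and Mirn9-1 and Mirn9-2 have regions of both kinds.

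The genes for miR-9, a microRNA of neural progenitors that is lost as oligodendrocytes mature, had the densest set of regions. Mirn9-1, Mirn9-2 and Mirn9-3 had 16 together, with 10 OPC calls, 12 OL calls and 6 regions holding both. Over all regions the shares were 38.6%, 85.3% and 23.8%. Signal was higher in OL at 8 and in OPC at 8, the former becoming 7 and 3 under the centrings, and the median log2 ratio was -0.02. At Mirn9-1 the strongest was 6859 bp downstream, chr3:88026075-88026681, with 12.1 in OPC and 3.82 in OL, called in OPC only, a ratio of -1.44. The adjacent regions at 6153 and 5445 bp had 6.04 and 3.13, called in OPC only, and 2.60 and 7.73, called in OL only. OPC-only and OL-only calls therefore lay within 2 kb of each other.

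The other Mirn9-1 regions had 5.68 in OPC and 4.50 in OL at 4525 bp, 4.79 and 5.83 at 1429 bp, 3.86 and 9.46 at -8280 bp, and 6.99 and 3.23 at -9813 bp. At Mirn9-2 the strongest, 6410 bp upstream, had 9.05 and 6.89 and was called in both. The one at -9119 bp had 5.12 and 1.08, called in OPC only, a log2 ratio of -1.55, and its neighbour at -7818 bp had 1.67 and 4.50, called in OL only. The region nearest to the Mirn9-2 start, at 813 bp, had 3.67 and 2.46 and was called in OPC only. Regions at 3046, -2950 and 5779 bp had 6.92 and 5.0, 2.80 and 3.71, and 2.69 and 3.46. Mirn9-3 had 2 regions, with 3.9 and 5.5 at -4373 bp and 2.94 and 4.77 at -9200 bp. As the plot of distances shows, each Mirn9-1 and Mirn9-2 locus held regions higher in each state.

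The remaining genes of the lineage list were mostly higher in OL on the deposited scale, by less than a log2 ratio of 1 at most regions. Mirn7-1, Mirn7-2 and Mirn7b, whose product miR-7 promotes oligodendrocyte production, had 4 regions, all higher in OL (3 with the shared regions at 0 and 2 with all regions at 0), with a median of 0.58. Mirn7-2 had 3.29 in OPC and 6.75 in OL and was called in OL only. Mirn7b had 2.30 and 6.00, called in OL only, and 6.67 and 7.32, called in both. Mirn146b, a microRNA of inflammatory signalling, had 1.82 and 6.79, a ratio of 1.47, and 2.65 and 6.29, both in OL only.

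The cluster of Mirn23b, Mirn27b and Mirn24-1 had 1 region, with 4.07 in OPC and 7.03 in OL, called in both. Mirn138-1, with a product known from early differentiation of oligodendrocytes, had 1.64 and 3.67, called in OL only. Mirn125a shared 3 regions with Mirn99b and Mirnlet7e, with 3.00 and 3.77, 2.23 and 4.21, and 4.65 and 5.63. Mirn200c and Mirn141 shared 1 with 4.63 and 6.14, called in OL only.

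Those higher in OPC were the shared region of Mirn29b-2 and Mirn29c (4.69 and 3.89, OPC only), that of Mirn212 and Mirn132 (4.13 and 3.16, OPC only) and that of Mirn335 (5.11 and 4.70, both). In all, the list of 16 lineage stems had 13 stems and 19 genes with a region. Its 38 regions held 20 OPC calls and 32 OL calls, with 14 regions holding both, beside 38.6%, 85.3% and 23.8% of all regions. A log2 ratio of 1 was reached by 8 and -1 by 2, beside 37.5% and 7.03%. The median was 0.30, and 0.41 over the 22 regions without the miR-9 genes, below the 0.74 of all regions. Signal was higher in OL at 26 of 38, a count that became 22 with the shared regions at 0 and 11 with all regions at 0.

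MicroRNAs known from neurons had 8 regions at 7 genes, and 6 of the 8 were called in OPC only, beside 14.7% of all regions. OPC calls were found at 7 and OL calls at 2, beside 38.6% and 85.3% of all regions. The 3 genes for miR-124, the main neuronal microRNA, had 4 regions, all OPC only and all higher in OPC on the deposited scale. Both centrings lower every ratio, so they could not have changed this direction. Mirn124a-2 had OPC and OL signals of 5.33 and 1.70 at -5978 bp, a log2 ratio of -1.23, and 3.39 and 1.00 at 3050 bp, a ratio of -1.13. Mirn124a-1 had 4.12 and 1.83 at -2745 bp, and Mirn124a-3 had 4.09 and 2.00 at 370 bp. Their median was -0.99, on 3 chromosomes.

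These signals were low in level: a single one of the 4 Mirn124a calls, and 2 of the 7 OPC calls of the neuronal list, reached 5.12, the median signal of all OPC calls. Mirn137 had 6.56 in OPC and 5.38 in OL, called in OPC only, so the lack of an OL call there went with an OL signal close to that in OPC. Mirn218-2, in the axon guidance gene Slit3, was higher in OL, with 3.68 and 7.64, called in both. Mirn128a, in R3hdm1, had 0 and 3.60, called in OL only. Mirn132 had 4.13 and 3.16, called in OPC only, at a region 5114 bp away that Mirn212 shares, so the lineage list holds it too. That region covered the start of Ovca2, at 13 bp. The list's median was -0.53, and 2 of the 8 were higher in OL under each scaling. The makeup of the cultures was not tested, since ChIP signal carries no count of cells.

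**Figure D4:**
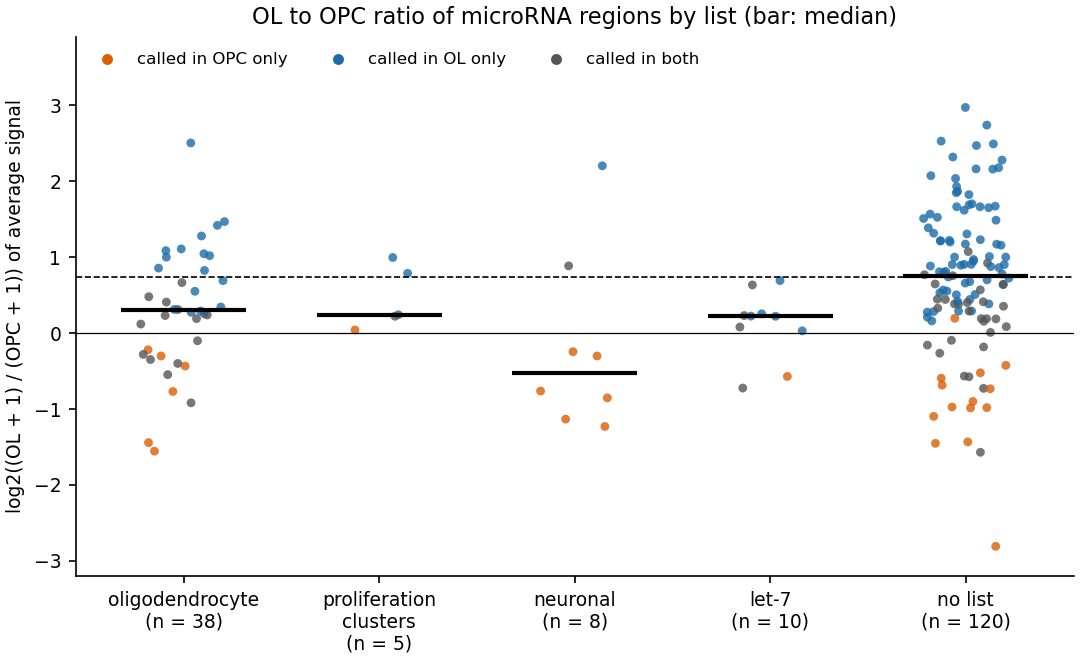
Ratio of OL to OPC average signal as log2 (y axis) of microRNA regions in 4 lists and of those in no list (x axis), with 1 point per region colored by the library of its call, a thick bar at each median and a dashed line at the median of all regions, 0.74. The neuronal list has a median of -0.53 with 6 of 8 regions called in OPC only, and regions in no list have a median of 0.75.

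The lists share members, and 4 of the 57 listed regions belong to more than 1. The 120 regions in no list had a median log2 ratio of 0.75, with 42 reaching 1 and 5 reaching -1. The plot by list shows the wide spread within each, and the lists were chosen with earlier results of these data known.

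The let-7 genes, whose products accumulate in differentiating cells and restrain proliferation, had 10 regions at 8 genes and small differences. OPC calls were found at 5 and OL calls at 9, beside 38.6% and 85.3% of all regions. A log2 ratio of 1 or -1 was reached by 0 of the 10, beside 37.5% and 7.03%. The strongest, 9358 bp downstream of Mirnlet7a-2 (chr9:41353737-41354576), had 9.50 in OPC and 5.36 in OL, called in both. The cluster of Mirnlet7d, Mirnlet7f1 and Mirnlet7a-1 had 3 regions, with 5.15 and 3.14 (OPC only), 4.23 and 4.53 (both), and 3.39 and 5.81 (both). No other gene was listed at these 4.

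Mirnlet7c-2 and Mirnlet7b shared a region with nearly equal signal, 5.14 in OPC and 5.26 in OL, called in OL only. Mirnlet7c-1 and Mirn99a shared 2 with 3.89 and 4.71, and 4.42 and 5.31, both called in OL only. The list's median was 0.22, and the 8 of 10 regions higher in OL became 3 with the shared regions at 0 and 0 with all regions at 0.

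Clusters linked to proliferation had 5 regions at 9 genes. The cluster of Mirn17, Mirn18, Mirn19a, Mirn20a, Mirn19b-1 and Mirn92-1, which is induced by Myc in many cells, had 1, with 3.11 in OPC and 3.86 in OL, called in OL only, 2588 bp upstream of its nearest member. The cluster of Mirn25, Mirn93 and Mirn106b lies in Mcm7, a gene of the replicative helicase, and had 4. A region covering the starts of both Mcm7 (-99 bp) and Ap4m1 (-60 bp) had 5.86 and 7.0 (called in both). It cannot be assigned to either gene. Its neighbour, which covered neither start, had 3.47 and 7.91 (OL only). The regions at the starts of Zfp113 and Cops6 had 4.68 and 4.85 (OPC only) and 1.88 and 3.96 (OL only). All 5 were higher in OL and 2 remained so under either centring, with a median of 0.24.

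Seeds shared between genes gave groups that differed in where they stood. The 3 genes with the miR-26 seed, UCAAGUA, lie next to or within the Ctdsp phosphatase genes Ctdspl, Ctdsp2 and Ctdsp1, and their 7 regions were all higher in OL (5 and 4 of them under the centrings), with a median of 0.92. The 2 genes with the miR-219 seed, GAUUGUC, had a median of 0.24. The 4 genes with the seed of miR-130 and miR-301, AGUGCAA, had 4 regions and a median of -0.19, with 3 of them called in both libraries. The genes with the miR-125 seed, CCCUGAG, had 5 regions, none OPC only (beside 14.7% of all regions), and a median of 0.29. Genes with the same seed did not always stand alike, as Mirn135a-1 was listed at 6.00 in OPC and 0 in OL while Mirn135a-2 had 7.22 and 7.71.

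Mirn26a-1, inside Ctdspl, a gene for a small phosphatase that restrains the cell cycle, had the region with the largest ratio among microRNA regions of above-median signal. That region, chr9:118946696-118947197, was 6033 bp downstream and had OPC and OL signals of 1.00 and 14.7, a call in OL only and a log2 ratio of 2.97. The region 778 bp from the start had 2.11 and 8.77, called in OL only, a ratio of 1.65. The one at -5915 bp had 1.67 and 5.21, called in OL only, and the one at -1918 bp had 6.43 and 7.50, called in OPC only although its OL signal was the higher. Mirn26a-2 had 5.23 and 5.27, called in both, and Mirn26b 3.14 and 6.85 (both), and 3.13 and 4.05 (OL only).

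Of the 10 highest microRNA regions in OL, 5 lay inside another gene, that of Mirn26a-1 among them. Mirn148b in Copz1, a coatomer subunit gene, had 2.94 in OPC and 15.6 in OL at 1052 bp (chr15:103116331-103116883), the highest OL signal of any microRNA region and number 958 of all regions. Mirn33, in the sterol regulator gene Srebf2 and known to repress cholesterol export, had 1.78 and 12.8 at -5168 bp (chr15:82022956-82023810), a log2 ratio of 2.32. Mirn326 in Arrb1, a beta-arrestin gene, had 1.79 and 11.6, a ratio of 2.18. All 3 were called in OL only, as Mirn26a-1 was, and each region lies inside the host gene named.

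Mirn151 in Ptk2 had a second region with OPC and OL signals of 1.67 and 9.93, a log2 ratio of 2.03. Mirn761 in Nrd1 had 2.00 and 9.93, and Mirn140 in Wwp2, a ubiquitin ligase gene, 2.00 and 6.83. Mirn464, outside any listed gene body, had 2.05 and 10.6. These 4 were called in OL only. Mirn686, at the start of the proteasome subunit gene Psmb5, had 5.56 and 12.8 and was called in both, as were Mirn374 with 7.91 and 10.8 and Mirn101a with 7.25 and 10.2.

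Mirn346 in Grid1 had 4 regions, all called in OL only and all with log2 ratios of at least 1, with signals of 1.00 to 4.11 in OPC and 5.33 to 9.28 in OL. Mirn345, next to Slc25a29, a mitochondrial carrier gene, had 3 regions inside that gene and 1 upstream of it, and these were of both kinds, as at Mirn9-1. Its region at -4408 bp had 5.75 in OPC and 1.5 in OL, called in OPC only, while that at -7137 bp had 1.00 and 3.69, called in OL only.

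The strongest OPC region, at Mirn342, was chr12:109906617-109907440, inside Evl, an actin regulator gene, and 10199 bp from the microRNA start. It had 20.0 in OPC and 6.09 in OL, was called in both and was number 187 of all regions in OPC, with a log2 ratio of -1.57. At that distance it was the farthest region from its microRNA. Mirn365-2, with microRNA genes alone, had 8.94 and 5.0 at 3533 bp, called in both. Mirn721 in Cutl1, Mirn130a and Mirn150 had 7.23 and 4.52, 6.16 and 3.83, and 7.55 and 9.44, all called in both. The 9 microRNA regions with ratios of at most -1 were those of Mirn342, Mirn345 and Mirn135a-1, 2 of Mirn124a-2, 1 each of Mirn9-1 and Mirn9-2, and those of Mirn324 (3.28 and 1.00) and Mirn671 (4.47 and 1.00). Apart from Mirn342, they were called in OPC only.

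Mirn7-1 gave a case in which the region lies at the start of the host gene and of a neighbour. Its region, chr13:58503486-58504481 in mm9, lay 9737 bp upstream of the microRNA and 106 bp from the start of Hnrpk, the RNA-binding protein gene in which Mirn7-1 sits. It also covers the start of Rmi1, at 354 bp, and cannot be assigned to either gene. It had 4.62 in OPC and 5.97 in OL and was called in both. The promoter of Hnrpk, now named Hnrnpk, is printed from RefSeq (GRCm38.p6, chr13:58402068-58402367, minus strand, 250 bases before to 50 after the start), with a match to TNAAGTG, the core known for NK-2 class homeodomains, in capitals.
Hnrnpk promoter: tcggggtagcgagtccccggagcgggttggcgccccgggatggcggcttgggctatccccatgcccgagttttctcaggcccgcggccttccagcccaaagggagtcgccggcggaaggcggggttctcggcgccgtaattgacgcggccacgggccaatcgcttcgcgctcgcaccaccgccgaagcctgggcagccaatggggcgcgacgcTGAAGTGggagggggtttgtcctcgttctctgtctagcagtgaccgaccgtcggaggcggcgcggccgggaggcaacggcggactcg
The motif was searched on both strands, with overlaps allowed, and a promoter with any match was counted once. It occurs in 3790 of 32851 promoters of this length, 11.5%, and in 3 of the 38 genes with 1 promoter whose start was covered by a microRNA region, 7.89%. A match is a description of the letters and not a measured binding site.

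Genes that make or use microRNAs mostly had a region, and their ratios stood near those of all genes. Of 27 names for the processing and silencing machinery, older and newer symbols of the same gene counted separately, 18 had a region. An OPC call was found for 11 of these, beside 57.3% of all genes, and an OL call for 18, beside 94.8%. Taking the strongest region of each gene, 5 of 18 reached a log2 ratio of 1, beside 34.7% of all genes, and 0 reached -1, beside 4.19%. The median was 0.59, and 0.73 over all genes. Dicer1, the enzyme that cuts the hairpin to its mature form, had OPC and OL signals of 3.20 and 5.6 at its start, called in OL only. Dgcr8, the partner of the nuclear hairpin-cutting enzyme, had 8.54 and 10.1 at a region downstream of the gene, 40253 bp from its start.

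Past the limit were Tnrc6c and Tnrc6a, scaffolds of the silencing complex, with 1.86 in OPC and 8.96 in OL and with 1.00 and 5.83. Lin28, whose product blocks let-7 maturation, had 1.88 and 6.20 downstream of the gene, at 17913 bp. Eif2c3 had 1.38 and 4.33, and Eif2c1, an Argonaute gene, had 3.43 and 8.14 at its start. Of these 5, that of Eif2c1 lay within 1 kb of the gene start, and the remaining 4 more than 5 kb from it.

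Genes known as targets of miR-219 or miR-338 had regions themselves. Of 9 names 8 had one. An OPC call was found for 7 of these, beside 57.3% of all genes, and an OL call for 8, beside 94.8%. At the strongest region of each gene, 4 reached a log2 ratio of 1, beside 34.7%, and 1 reached -1, beside 4.19%. The median was 0.51. Pdgfra, the receptor for the growth factor that keeps progenitors dividing, had OPC and OL signals of 8.30 and 24.3 inside the gene, a ratio of 1.44. Lingo1, an inhibitor of myelination, had 1.67 and 6.68, Foxj3 2.09 and 7.0, and Hes5, a Notch effector, 3.64 and 10.7. Zfp238, a zinc finger repressor gene, had 6.91 and 1.43 just upstream of its start, a ratio of -1.70. Sox6, a transcription factor gene of progenitors, had 14.1 and 9.29, Fgfr2, a growth factor receptor gene, 7.2 and 3.89, and Etv5 16.4 and 13. With Zfp238, these made 4 of the 8 genes higher in OPC at their strongest region, on the deposited scale. Other regions of a gene could differ from its strongest. Sox6 had 31 regions, with 8 at 1 or more and 4 at -1 or less, beside 37.5% and 7.03% of all regions. Fgfr2 had 6, with 2 and 0, Etv5 had 5, with 1 and 0, and Pdgfra had 7, with 2 and 1.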

How the data were processed

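Nkx2.2 ChIP-seq was deposited for OPC and OL, with 1 library each and a pooled input that was not analysed here. BWA, MACS 1.4.2 and the build mm9 are named per the submitters' processing notes. How the input, a threshold, fragment extension and scaling between libraries entered is not given in sources used here. The authors merged the intervals called per library into regions, per the file headers, and the deposited average and highest signal per region and library are in units of coverage whose depth is unknown. The deposited table also holds, per the file headers, the presence of a call and counts of intervals, CpG islands, promoters and genes. Positions are as deposited, and whether starts count from 0 or 1 is not stated.

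Members were the gene symbols starting with Mirn. Distances run from the middle of the region to the annotated gene start, and where a region lists several microRNA genes the smallest was used. log2((OL + 1) / (OPC + 1)) of the average signal used a pseudocount of 1 and no filter on low values. Shares carry exact Clopper-Pearson 95% intervals and the median an order-statistic interval. With no replicates, OPC and OL were not tested against each other. The counting and ratio steps were tested on simulated data. Named genes were those of the 10 highest regions per library, of the 10 largest and 10 smallest log2 ratios among microRNA regions above the median mean signal of all regions, of regions within 1 kb of a microRNA start, and of 4 microRNA lists, with the extremes of 2 lists of pathway genes. Mirn135a-1, Mirn345, Mirn324, Mirn671 and the further regions of Mirn346, and Dicer1 and Dgcr8, were named after their values were seen. The members and lists were chosen with earlier results of these data known, and the let-7 stem was respelled after the table was seen. For the genes of machinery and targets, the region with the highest signal in either library stands for the gene. Alternatives changed the pseudocount, signal measure, centring, filter, stringency of calls, window and position. Sequences come from RefSeq, matched by symbol. Python 3.11.15, pandas 2.3.3, numpy 2.4.6, scipy 1.17.1 and matplotlib 3.10.9 were used.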

Additional observations from a re-analysis of the deposited data

How the results depend on the processing

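Calls kept where the library's signal was at or above the median of its calls (5.12 in OPC, 5.46 in OL) left 38 microRNA regions in OPC, 72 in OL and 17 in both, and 11 machinery genes. The limit is the median of all calls of a library, so a large drop is built into it and is not particular to microRNA regions. Leaving out the 55 regions within 1 kb of another gene's start, an alternative chosen after seeing the data, left 48 called in OPC and 29 in both, of 122. The median log2 ratio was 0.30 with a pseudocount of 5, 0.31 with the regions called in both at 0 and -0.18 with all regions at 0. The count at 1 or more was 8 with a pseudocount of 5, 18 with all regions at 0 and 18 among the 94 regions of above-median signal. The count at -1 or less was 14 and 2 with pseudocounts of 0.5 and 5, 21 with the highest signal, 17 and 34 under the 2 centrings and 2 with the filter. A microRNA start was covered by 11 regions, beside 28 within 1 kb. Of 52 named regions, 1, 13, 7, 6 and 19 crossed a limit of 1 or -1 under pseudocounts of 0.5 and 5, the highest signal and the 2 centrings. Of those past a limit, 0 changed sign, which the highest signal alone could have brought about. A pseudocount cannot change a sign, and the centring shifts of 0.24 and 0.74 are smaller than the limit. No paired analysis was possible because each state has 1 library, and leaving out a replicate was not possible either. Depth, input and scaling were unknown, which limits how far levels can be set against each other.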
